A study of Mus musculus with 16 samples.

Results

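The EGF family genes described here are 9 of the 17721 genes counted in single cells of the pubertal mouse mammary gland. They were taken by name, with earlier results of these data known. They comprise the ligands Areg, Ereg, Hbegf, Tgfa and Btc, the receptors Egfr, Erbb2 and Erbb3, and the receptor inhibitor Errfi1. All 9 had counts. The study asked how mammary cells differ with their place in the gland. Single nipples (4), ducts (6) and terminal end buds (TEBs, the growing tips of the pubertal ducts, 6) were cut from C57BL/6 mice of the K14-Cre/R26-mTmG reporter line at 5 weeks of age. All groups share this genotype, and the labels name no treatment. In this line the Krt14 promoter drives Cre, which switches a membrane reporter in cells that have expressed Krt14. Each fragment was made into a cell suspension on its own, and its cells were sorted into wells and read by 3' SMART-seq with unique molecular identifiers (UMIs). The labels do not say which mouse gave which fragment, so p-values measure the spread between fragments, some of which may share an animal.

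EGF family ligands are made as membrane proteins, and metalloproteases such as ADAM17 release them to act on neighbouring cells. Amphiregulin (Areg) and TGF-alpha (Tgfa) bind EGFR, whereas epiregulin (Ereg), HB-EGF (Hbegf) and betacellulin (Btc) also act through ERBB4. ERBB2 has no known soluble ligand and pairs with the other receptors, ERBB3 binds neuregulins, and the cytoplasmic protein MIG6 (Errfi1) is induced by EGFR signalling and inhibits the receptor. In the pubertal gland, amphiregulin from estrogen receptor-positive luminal cells and EGFR in the stroma are known to be needed for duct growth.

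Areg, Ereg and Btc lie near each other on chromosome 5 (GRCm38, GENCODE M21). Ereg is at 91074622-91093646 and Areg at 91139599-91148432, both on the plus strand with 46 kb between them, and Btc follows at 91357261-91402994 on the minus strand, 209 kb beyond Areg. Errfi1 is at 150853919-150868892 on chromosome 4, Tgfa at 86195223-86275719 on chromosome 6, Egfr at 16752203-16918158 and Erbb2 at 98412470-98437716 on chromosome 11, all on the plus strand, and Erbb3 at 128567523-128589652 on the minus strand of chromosome 10. Areg and Errfi1 were the members with the highest means in epithelial cells, and windows of their promoters are shown because these were the members that shared 2 motifs there. RefSeq promoters on GRCm38.p6 (250 bases before to 50 after the start) were listed for 6 members, 7 promoters in all, and for 32851 promoters overall. The cAMP response element TGACGTCA was found in the promoters of Areg and Errfi1 and in 1.79% of all promoters, and the TATA box TATAAA in the same pair and in 13.6%. Capitals mark the motif in each window, the coordinates are of the window, and all windows are on the plus strand.
Areg, cAMP response element, chr5:91139528-91139555: ggctggtccgTGACGTCAcgggcggtgg
Errfi1, cAMP response element, chr4:150855009-150855036: ctgcgggcgtTGACGTCAcgttgtcgct
Areg, TATA box, chr5:91139558-91139583: ccagcgggtcTATAAAagcagcaggt
Errfi1, TATA box, chr4:150855032-150855057: tcgctcaccgTATAAAtacgggcgtc

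The core of that element, TGACG, which lies inside it, was also present in the Btc and Erbb2 promoters and in 20.8% of all promoters. The AP-1 motif TGANTCA (7.81% of all promoters), the ETS motif CCGGAAGT (3.89%), the palindromic estrogen response element (0.07%) and the CArG box (1.63%) were found in 0 of the 7 member promoters. Both strands were searched. These matches describe the letters in a window and no binding was measured.

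The table held 1419 cells, of which 1318 passed the filters, 67 to 88 per fragment, and fragments held 1856141 to 5233122 UMIs. Clusters were named from marker genes: 293 basal-like cells, 431 estrogen receptor-positive (ER+) and 177 ER- luminal-like cells, 252 fibroblast-like and 78 myeloid-like cells, and 87 left unnamed. The names are rebuilt ones, and for basal-like and fibroblast-like cells the locations sit in different clusters. Basal-like cells of nipple and duct formed cluster 1 (95 and 115 cells) and those of TEB cluster 5 (82 cells and 1 nipple cell). Cluster 5 had 7 of 9 basal markers above their mean over clusters, but none of these was among its 10 leading genes, and its summed basal markers per fragment were 4430 to 8180 CPM (UMIs of a gene per 1000000 UMIs of the sum) against 17400 to 26100 in nipple and duct. Fibroblast-like cells of nipple were mostly in cluster 4 (86 cells) and those of TEB in cluster 8 (64 cells). The 9 members were kept out of the genes used for clustering. UMIs were summed per fragment and class where a fragment gave at least 5 cells, so that n is the number of fragments, and levels are CPM of these sums. Each molecule is tagged at its 3' end, so CPM does not grow with transcript length and levels of different genes are set side by side on this scale.

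Areg was the most abundant ligand by far and was concentrated in ER+ luminal-like cells. Its level there was 2383 ± 364 CPM (SD, n = 16), from 1705 to 3142, and 428 of 431 ER+ cells had a UMI. The other classes averaged 86.3 (ER-), 78.3 (myeloid-like), 66.8 (basal-like) and 47.5 CPM (fibroblast-like), so that the ER+ mean was 27.6 to 50.1 times higher, and ER+ was the highest class in every fragment that allowed the comparison. The 4 lower classes were not separated from each other by more than their spread. Counts in those classes also lay below the estimate of RNA from other wells. Estimated from marker genes of other classes, 1030 Areg UMIs would be carried over into basal-like, 728 into ER- and 636 into fibroblast-like cells. Counted were 532, 478 and 348, so these levels are not read as expression above background. By contrast, 39804 were counted in ER+ cells and 2310 expected. Carry-over cannot exceed the count, so the estimate is too high in those lower classes, and the true share was not measured.

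Btc was the other ligand highest in ER+ cells, at 132 ± 63.0 CPM (n = 16), with 43.5 in the lowest and 286 in the highest fragment. ER- cells followed at 22.2 ± 21.7 CPM (n = 14), and ER+ was above ER- in 13 of 14 fragments. Basal-like cells held 29 UMIs in all, against 68.6 expected from other wells, and fibroblast-like cells 26 against 41.8. A UMI was found in 42.5% of ER+ cells (26% with every cell thinned to 5000 UMIs), compared with 7.51% of basal-like cells (1.37% thinned). The median depth was 36342 UMIs per ER+ cell and 25173 per basal-like cell.

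Ereg had its highest mean in basal-like cells, 32.1 ± 36.3 CPM (n = 16), and the second in fibroblast-like cells, 13.96 ± 30.5 CPM (n = 13). The SDs exceed the means because the fragments split by location, as described below. ER+ cells held 10 Ereg UMIs in all (20 expected from other wells), ER- cells 15, and myeloid-like cells 0, which allows up to 12 CPM in duct and 3.32 CPM in TEB at 3 UMIs over the group. Ereg was seen in 18.1% of basal-like (11.3% thinned), 9.92% of fibroblast-like (3.57% thinned) and 2.32% of ER+ cells (0% thinned). The 257 UMIs of basal-like and 204 of fibroblast-like cells were well above the 9.61 and 8.29 expected from other wells.

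Tgfa was a basal-like ligand at a low level, 36.2 ± 19.9 CPM (n = 16), 2.56 times the ER- mean and above it in 12 of 14 fragments. ER- (14.2 ± 13.6 CPM) and ER+ cells (11.8 ± 13.2 CPM) did not differ beyond their spread. Fibroblast-like cells held 2 Tgfa UMIs in all and the myeloid-like sums 0. Hbegf, in contrast, was spread over all 5 classes. It averaged 270 ± 189 CPM in ER- (n = 14), 252 ± 162 in myeloid-like (n = 7), 142 ± 113 in basal-like (n = 16), 113 ± 51.6 in ER+ (n = 16) and 75.4 ± 37.5 CPM in fibroblast-like cells (n = 13), and no step between neighbours in this order exceeded the spread. ER- cells were above fibroblast-like cells in 12 of 12 fragments and above basal-like cells in 9 of 14.

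Egfr, the receptor for all 5 ligands, was highest in fibroblast-like cells, at 293 ± 139 CPM (n = 13), with 66.9 in the lowest and 504 in the highest fragment. Basal-like cells had 40.6 ± 28.4 CPM and ER- cells 37.0 ± 16.8 CPM, which did not differ beyond their spread, and fibroblast-like cells were 7.21 and 7.92 times higher and above them in 13 of 13 and 12 of 12 fragments. ER+ cells, the class highest in Areg, had the lowest Egfr mean, 4.77 ± 3.35 CPM (n = 16), and their 68 UMIs lay below the 113 expected from other wells. Egfr was detected in 88.1% of fibroblast-like cells (59.9% thinned), 35.8% of basal-like (15.7%), 36.7% of ER- (12.5%) and 11.8% of ER+ cells (2.09%).

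Erbb2 was similar in the epithelial classes: 27.9 ± 12.7 CPM in ER+, 22.4 ± 18.8 in ER- and 20.5 ± 19.7 in basal-like cells, differences smaller than the spread. It was 4.34 ± 4.26 CPM in fibroblast-like cells, and the myeloid-like sums held 0 UMIs. Erbb3 was counted in the epithelial classes at a few CPM, 13.0 ± 15.0 in ER-, 8.94 ± 7.29 in ER+ and 2.04 ± 5.09 in basal-like cells. Not a single Erbb3 UMI was counted in 252 fibroblast-like cells, with limits of 0.641 CPM in nipple, 0.792 in TEB and 2.94 in duct. The myeloid-like sums held 0 as well, but so few UMIs that 12 CPM in duct and 3.32 in TEB would be allowed, levels like those of the epithelial classes. Errfi1, the inhibitor, was found in every class. It reached 939 ± 256 CPM in fibroblast-like cells (n = 13), 2.68 to 3.15 times the epithelial means and higher in every shared fragment, whereas ER- (350 ± 121), ER+ (338 ± 149) and basal-like cells (298 ± 180) did not differ beyond their spread and myeloid-like cells had 83.2 ± 52.8 CPM.

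**Figure D1:**
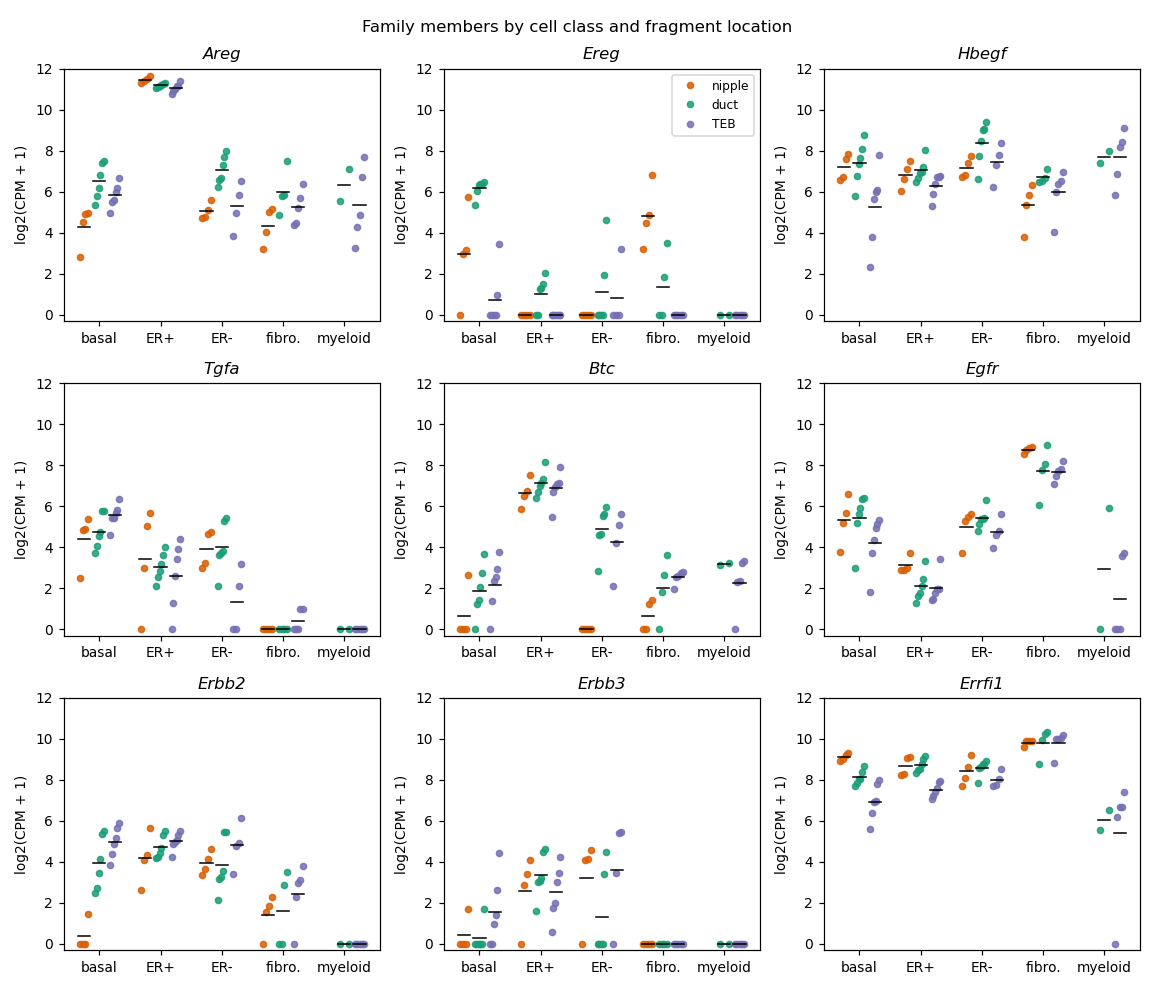
Levels of the 9 members in each cell class, as log2(CPM + 1) of UMIs summed per fragment (points, coloured by location) with the mean over fragments (black line). Areg and Btc are highest in ER+ luminal-like cells, Egfr and Errfi1 in fibroblast-like cells and Tgfa in basal-like cells, and Erbb3 is at 0 in fibroblast-like and myeloid-like cells.

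Set by role, the summed level of the 5 ligands had its highest median in ER+ cells, 2590 CPM, with Areg the leading ligand in 16 of 16 fragments. In ER- (median 308 CPM) and basal-like cells (241 CPM) Hbegf led in 13 of 14 and 12 of 16. The summed level of the 3 receptors was highest in fibroblast-like cells, 263 CPM with Egfr leading in 13 of 13, against 72.9 in ER-, 63.8 in basal-like, 43 in ER+ and 0 CPM (median) in myeloid-like cells. Erbb2 led in ER+ cells in 13 of 16 fragments.

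**Figure D2:**
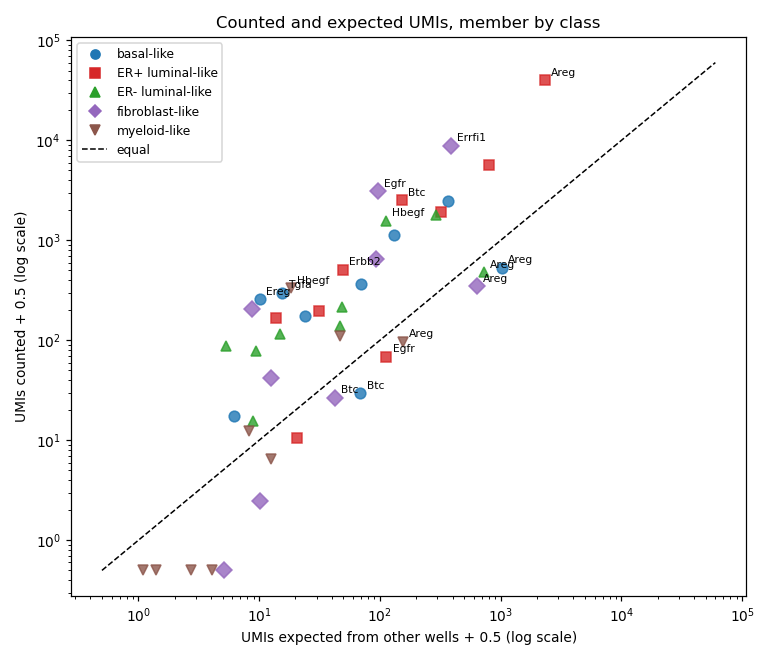
UMIs counted for each member in each class (vertical axis) against UMIs expected from RNA of other wells (horizontal axis), both with 0.5 added and on log scales, with the dashed line where they are equal. Areg in every class but ER+ lies below the line, as do Egfr in ER+ cells and Btc in basal-like and fibroblast-like cells.

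The location of the fragment was compared next within each class by edgeR's quasi-likelihood test over nipple, duct and TEB, with Benjamini-Hochberg adjustment over all genes tested and a threshold of 0.05. Throughout, a difference between locations may reflect fewer cells of a kind within the class as well as less RNA per cell. Members and gene lists were chosen with earlier results of these data known. Their shares called are therefore set beside those of all genes as a description. In basal-like cells, 4 of the 7 members tested were called across the locations (Errfi1, Ereg, Erbb2 and Areg), when 20.4% of all 7312 genes tested were called. Between pairs, nipple and TEB differed in 3 of the 7 (19% of all genes), nipple and duct in 3 (6.4%) and duct and TEB in 2 (10.4%). Btc and Erbb3 did not pass the filter on low counts. These contrasts also set cluster 1 against cluster 5, and the naming of cluster 5 as basal-like rests on few markers.

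Within basal-like cells Ereg was highest in duct. The study already names Ereg a duct signature gene of basal cells, from these same cells and by real-time PCR. The tests below are therefore not independent of that choice, and Ereg can pass the filter on low counts through duct alone. The 6 duct fragments held 39.5 to 88.4 CPM (median 80.7), the 4 nipple fragments 7.94, 52.2, 6.88 and 0 CPM, and the TEB fragments 0 in 4 of 6, 0.966 and 9.91 CPM. Every duct fragment was above every TEB fragment, while nipple fragment 22 lay within the duct range. The log2 fold change of duct over TEB was 5.80 ± 0.944 (SE, adjusted p = 1.33e-05, edgeR). Nipple was above TEB by a log2 of 3.74 ± 1.02 (adjusted p = 0.00465), a call that rested on nipple fragment 22: without it the value was 1.94 and the adjusted p 0.232. Nipple against duct gave -2.06 ± 0.78 (adjusted p = 0.117), or -3.85 without fragment 22 (adjusted p = 0.0119).

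Errfi1 fell stepwise from nipple to duct to TEB in basal-like cells. The nipple fragments had 482, 588, 516 and 629 CPM, the duct fragments 209 to 411 (median 262), and the TEB fragments 47.3 to 251 (median 122). No nipple fragment overlapped with duct or TEB, and duct and TEB overlapped. Nipple was above TEB by a log2 of 2.21 ± 0.288 (adjusted p = 7.16e-07, edgeR) and duct above TEB by 1.24 ± 0.267 (adjusted p = 0.00141). Nipple was above duct by 0.97 ± 0.28 (adjusted p = 0.0293), and this call was lost without duct fragment 31, 32, 52 or 61 or nipple fragment 22, 23 or 24 (0.894 to 0.999, adjusted p = 0.0584 to 0.109).

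Erbb2 was nearly absent from nipple basal-like cells, with 1 UMI in 96 cells. The 4 nipple fragments had 0, 0, 0 and 1.79 CPM, the duct fragments 4.63 to 45.0 (median 13.4) and the TEB fragments 13.5 to 58.7 (median 31.6). All nipple fragments were below all others, and duct and TEB overlapped. With so few UMIs the ratio of pooled rates is the plainer size: TEB was 65.7 times nipple (114 UMIs against 1, exact 95% interval 11.6 to 2620) and duct 43.1 times (58 against 1, 7.44 to 1730). The 1 nipple UMI was in fragment 24, without which TEB was at least 16.2-fold and duct at least 10.6-fold higher. The edgeR tests gave adjusted p = 0.000808 for nipple against TEB and 0.0071 for nipple against duct, and 0.687 when duct was set against TEB. Erbb3 was not tested, but 15 of its 17 basal-like UMIs came from TEB (15 against 1 in duct, a ratio of 11.6 with an interval of 1.79 to 489). TEB fragment 31 alone held 10 of these, and without it the ratio was 4.46 with an interval of 0.499 to 211. Without duct fragment 32, which held the duct UMI, TEB was at least 3.29-fold higher.

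Areg was called in basal-like cells as well (adjusted p = 0.00315), with a log2 fold change of nipple over duct of -2.25 ± 0.512 (adjusted p = 0.0045). The nipple fragments had 21.8, 6.14, 29.8 and 28.7 CPM, duct 40.2 to 180 (median 91.7) and TEB 30.6 to 99.1 (median 55.0), with nipple below all others. These counts lay under those expected from other wells in each location, 44 against 98.5 in nipple, 293 against 457 in duct and 195 against 473 in TEB. The remaining members had no call. Hbegf ranged from 54.2 to 435 CPM in duct, 95.1 to 224 in nipple and 4.08 to 221 in TEB (adjusted p = 0.167), and passed without TEB fragment 32, the highest of its location (adjusted p = 0.00919), and where a fragment had to give 10 cells (0.0231). Egfr averaged 52.7, 48.8 and 23.1 CPM in duct, nipple and TEB (adjusted p = 0.184), and Tgfa 30.3, 25.6 and 49.2 CPM (adjusted p = 0.603).

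Other cells' markers moved with these basal-like results. Summed fibroblast markers were 909 to 1850 CPM in nipple basal-like sums and 228 to 484 in TEB, and general luminal keratins 3980 to 5110 in nipple, 6440 to 8530 in duct and 2460 to 3690 in TEB. Their part in the member differences was not tested, beyond the counts expected from other wells given above.

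**Figure D3:**
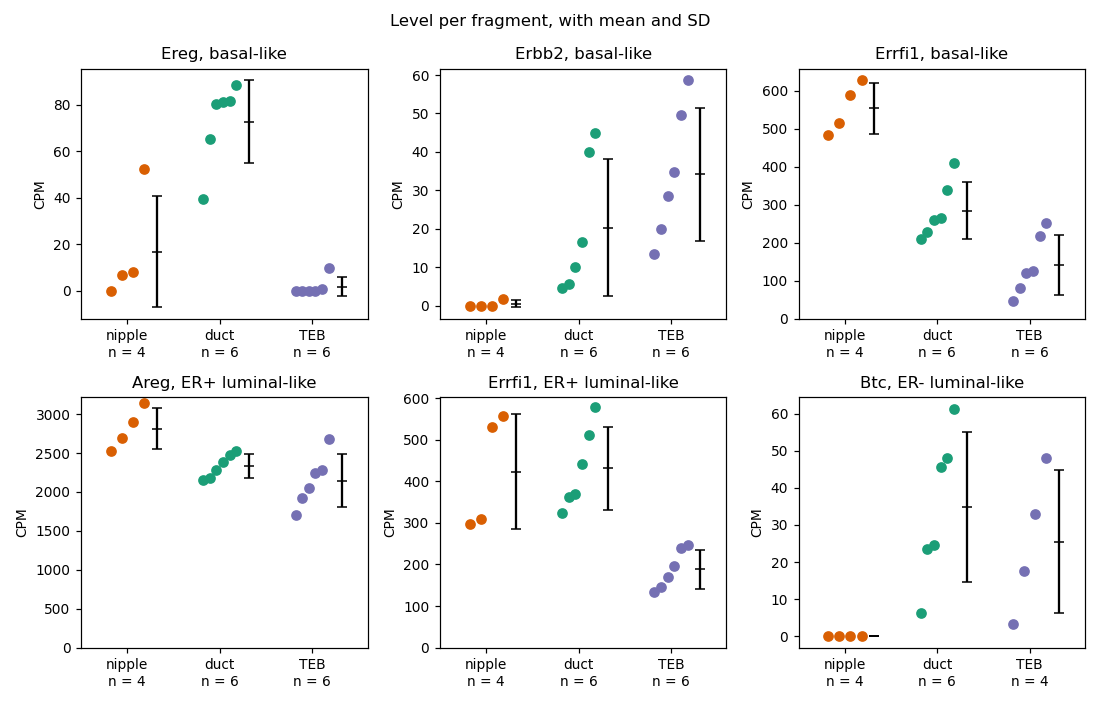
CPM of 5 members, each in the class named above its panel (Errfi1 in both basal-like and ER+ cells), 1 point per fragment with the mean and SD (lines), for nipple, duct and TEB. Ereg is high in duct and Erbb2 near 0 in nipple basal-like cells, Errfi1 is highest in nipple basal-like cells and lowest in TEB, Areg and Errfi1 are lower in TEB than in nipple ER+ cells, and Btc is at 0 in all nipple ER- sums.

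In ER+ luminal-like cells Errfi1 alone was called across locations, 1 of 7 members tested, when 5.56% of 8838 genes were. The TEB fragments had 133 to 247 CPM (median 183), the duct fragments 324 to 579 (median 406) and the nipple fragments 311, 530, 297 and 557. All TEB fragments were below all others, and nipple and duct overlapped. Duct exceeded TEB by a log2 of 1.23 ± 0.186 (adjusted p = 0.000202, edgeR) and nipple exceeded TEB by 1.18 ± 0.205 (adjusted p = 0.000249). Duct against TEB called 1 of the 7 members (1.74% of all genes), nipple against TEB called 2 (5.73%) and nipple against duct 0 of 7 (2.07%), where Areg alone had an unadjusted p under 0.05 (0.0313) and DESeq2 also called 0.

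Areg in ER+ cells differed little between locations for all its abundance. The nipple fragments held 2692, 2531, 3142 and 2894 CPM, the duct fragments 2152 to 2520 (median 2333) and the TEB fragments 1705 to 2681 (median 2148). All nipple fragments were above all duct fragments, and TEB overlapped with both. The test across locations gave adjusted p = 0.0532, which passed under RLE size factors, DESeq2 and 3 other ways of processing and without duct fragment 61 (0.0487), duct fragment 62 (0.0485) or TEB fragment 32 (0.0106). Nipple exceeded TEB by a log2 of 0.40 ± 0.108 (adjusted p = 0.0196), and the call was lost without nipple fragment 23 or 24 or TEB fragment 31, 33 or 43 (adjusted p = 0.0511 to 0.105). Summed fibroblast markers were 877 to 2190 CPM in nipple ER+ sums and 164 to 358 in TEB, and their part was not tested. Btc averaged 108, 149 and 131 CPM in nipple, duct and TEB (adjusted p = 0.785), Erbb2 22.4, 27.3 and 32.2 CPM (adjusted p = 0.858), Erbb3 7.92, 11.7 and 6.88 CPM (adjusted p = 0.832), Hbegf 120, 139 and 82.7 CPM (adjusted p = 0.192) and Tgfa 22.3, 8.19 and 8.47 CPM (adjusted p = 0.496).

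The ER+ class was made up of cluster 0, led by Sprr1a and Ido1, and cluster 2, with Krt4 among its leading genes. Areg averaged 2611 ± 740 CPM in cluster 0 and 2143 ± 400 CPM in cluster 2, higher in cluster 0 in 9 of 12 fragments with both, whereas Erbb2 and Tgfa were higher in cluster 2 in 10 of 12. With cluster 0 alone, a check added after the data were seen, Errfi1 was called across locations (adjusted p = 0.00207) and Areg was not (0.13). With cluster 2 alone it was Areg (adjusted p = 0.0298) and not Errfi1 (0.432). The folds of nipple over TEB kept their direction in both clusters, a log2 of 0.68 (adjusted p = 0.0707) and 0.53 (0.0154) for Areg and 1.36 (0.016) and 0.86 (0.308) for Errfi1 in clusters 0 and 2. Nipple gave 2 sums in cluster 0 and 4 in cluster 2, and the difference between the clusters was not tested.

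In ER- luminal-like cells Areg and Btc were called across locations, 2 of 5 members tested, when 4.38% of 5597 genes were. Btc was undetected in the 4 nipple sums (48 cells, up to 2.36 CPM at 3 UMIs), at 6.18 to 61.3 CPM in duct (median 35.0) and at 3.36, 33.04, 17.6 and 47.9 CPM in the 4 TEB sums. All nipple sums were below all others, and duct and TEB overlapped. On pooled rates, duct was at least 13.8-fold and TEB at least 13.3-fold higher than nipple (adjusted p = 0.0209 and 0.0208, edgeR), or at least 9.07-fold and 8.77-fold without nipple fragment 23. These limits leave out the spread between fragments, the lowest of which had 6.18 CPM in duct and 3.36 in TEB. From other wells, 30.7 UMIs were expected in duct (80 counted), 12.2 in TEB (59 counted) and 3.3 in nipple (0 counted). The fold limits are not corrected for this carry-over, and its part in the difference was not tested. The duct call was lost without nipple fragment 23 or 24 (adjusted p = 0.0516 and 0.0524), and the TEB call without TEB fragment 42 (0.0695) or with at least 10 cells per fragment (0.181). The call across locations was lost without duct fragment 51 or 62 or nipple fragment 23 or 24 (adjusted p = 0.0515 to 0.0664) or with at least 10 cells (0.091).

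Areg in ER- cells averaged 33.2 ± 10.6 CPM in nipple (n = 4), 147 ± 70.1 in duct (n = 6) and 47.7 ± 33.7 in TEB (n = 4), with nipple below duct (log2 -2.09 ± 0.527, adjusted p = 0.0291, edgeR). As in basal-like cells the counts lay below those expected from other wells, 40 against 70.1, 348 against 492 and 90 against 166. The nipple against duct call was lost without duct fragment 31, 32 or 62 or nipple fragment 22, 23 or 24 (adjusted p = 0.0597 to 0.102). Nipple against TEB called 1 of the 5 members (4.65% of all genes), nipple against duct 2 (1.66%) and duct against TEB 0 (1.43%, with 3 of 5 at an unadjusted p under 0.05 and Areg called by DESeq2). Hbegf was 98.6 to 680 CPM in duct, 104 to 213 in nipple and 75.1 to 336 in TEB (adjusted p = 0.153), but passed by DESeq2 (0.0459), with no filter on low counts (0.000112), with cells thinned to 5000 UMIs (0.00246) and without duct fragment 51 (0.0113). Errfi1 (adjusted p = 0.364) and Egfr (0.833) were not called. Summed basal markers were 1720 to 3330 CPM in nipple ER- sums and 45.4 to 188 in TEB.

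Fibroblast-like cells gave no called member of 4 tested by edgeR (1.7% of 8489 genes across locations, against TEB 1.54% in nipple and 0.271% in duct, and 0.2% when nipple was set against duct), nor by DESeq2 in any pair of locations, and 1 of the 4, Egfr, had an unadjusted p under 0.05 across locations. Egfr was at 422, 470, 452 and 370 CPM in nipple and at 135 to 290 CPM in TEB (5 fragments), and these did not overlap. The duct fragments, 66.9, 220, 504 and 263 CPM, spanned both. Nipple over TEB gave a log2 of 1.16 ± 0.353 with an unadjusted p of 0.00301 and an adjusted p of 0.112 (edgeR), and across locations the adjusted p was 0.199, or 0.0434 without duct fragment 32 and 0.00147 where a fragment had to give 10 cells. Errfi1 averaged 897, 976 and 944 CPM in nipple, duct and TEB.

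Ereg in fibroblast-like cells did not pass the filter on low counts. It had 28.2, 8.30, 21.1 and 111 CPM in the 4 nipple fragments, 0, 0, 10.3 and 2.602 in duct and 0 in all 5 TEB fragments, where 95 cells held no UMI. On pooled rates, nipple was at least 53.7-fold higher than TEB (199 UMIs against 0). Nipple fragment 24 held 130 of these, and without it the limit was at least 24.8-fold. In a fit with no filter, over 14926 genes, the adjusted p was 4.11e-05 for nipple over TEB and 0.279 for nipple over duct. Nipple and TEB fibroblast-like cells sat mainly in different clusters.

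**Figure D4:**
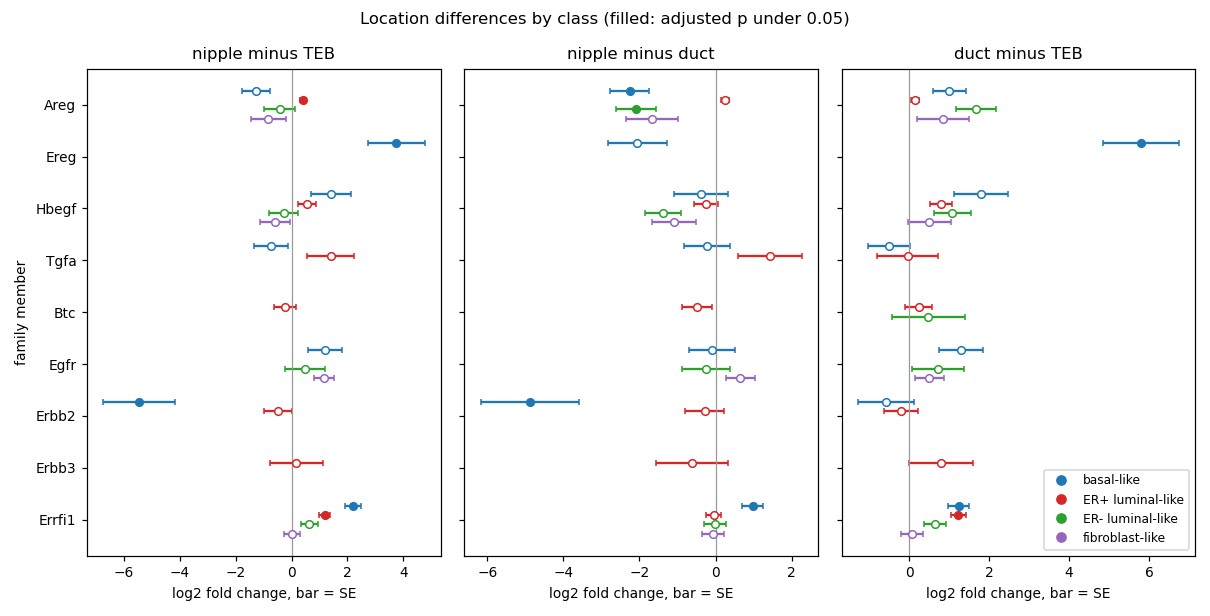
Log2 fold changes between locations with their SEs (edgeR) for the members tested in 4 classes, filled where the adjusted p was under 0.05. Btc in ER- cells has no SE for nipple against TEB or duct, so these called differences are not drawn. Errfi1 is lower in TEB in basal-like and ER+ cells, Ereg in basal-like cells is above TEB in nipple and duct, and Erbb2 in basal-like cells is far lower in nipple.

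Whether a member's location effect differed between classes was tested by a class by location term with the fragment as a block. Against ER+ cells (16 fragments) the basal-like effect differed for Areg (adjusted p = 0.0272, edgeR), Erbb2 (0.0356) and Errfi1 (0.0409) of 9 members, when 6.68% of 9386 genes were called. Areg in basal-like cells was counted below what was expected from other wells (532 UMIs against 1030). The part of carry-over in its term was not tested. Against ER- cells (14 fragments) it differed for Errfi1 (adjusted p = 0.0294) of 8, when 2.8% of 7934 genes were called. Errfi1 was higher in nipple than in duct in basal-like cells and averaged 423 and 431 CPM in nipple and duct ER+ cells and 370 and 395 CPM in ER- cells, while Erbb2 was lower in nipple in basal-like cells and averaged 22.4 to 32.2 CPM over the 3 locations in ER+ cells. These terms were close to the threshold. Without any 1 of the 4 nipple fragments 0 of the 3 against ER+ cells passed (adjusted p = 0.0513 to 0.171), Areg was also lost without duct fragment 32 or 62 (0.0542 and 0.0516) and Erbb2 without TEB fragment 33 (0.0562). Errfi1 against ER+ cells was also lost under RLE size factors (0.0828) and without duct fragment 31, 51, 52 or 61 or TEB fragment 31, 33 or 42 (0.0601 to 0.0754), and against ER- cells without duct fragment 52, nipple fragment 21, 23 or 24 or TEB fragment 32 or 42 (0.0502 to 0.18).

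Of the remaining family genes, Nrg1, the neuregulin ligand of ERBB3, passed the filter in basal-like cells and was called (adjusted p = 0.000472, edgeR). It had 110 to 190 CPM in nipple, 218 to 436 in duct and 337 to 654 in TEB, with nipple below all others and a log2 of -1.31 ± 0.245 against TEB (adjusted p = 0.000142). Egf and Erbb4 had at most 1 and 2 UMIs in any location of basal-like cells.

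Among the proteases and their cofactors that release ligands (Adam17, Adam10, Adam9, Adam12, Rhbdf1 and Rhbdf2), 0 of the 5 tested were called across locations in basal-like cells, 0 of 5 in ER+ and 0 of 4 in ER- cells by edgeR, with 0 at an unadjusted p under 0.05 and 0 called by DESeq2. Of the adaptors and kinases, such as Shc1, Grb2 and Mapk3, 0 of 14, 0 of 14 and 0 of 13 were called, and of 17 negative regulators such as Lrig1, Cbl, Spry2 and Dusp6 none of the 11, 11 and 5 tested. Over all genes tested, the shares called across locations were 20.4% in basal-like, 5.56% in ER+ and 4.38% in ER- cells. Between nipple and TEB, edgeR called 1 of each in basal-like cells (19% of all genes), Grb2 (31.4 CPM in TEB, 70.01 in nipple) and Socs5 (70.4 and 138 CPM), both higher in nipple. Unadjusted, edgeR gave 1, 1 and 0 adaptors and 2, 1 and 0 negative regulators a p under 0.05, and across locations DESeq2 called Grb2 and Cblb in basal-like and Mapk3 in ER+ cells. In fibroblast-like cells Lrig1, which promotes ERBB receptor turnover, was called as 1 of 14 (adjusted p = 0.0378), when 1.7% of all genes were. It was at 31.1 to 74.7 CPM in nipple, 7.84 to 17.7 in TEB and 0 to 7.75 in duct. That call was lost without any 1 of 9 fragments, duct 62, nipple 21 to 24 or TEB 31 to 34 (adjusted p = 0.0511 to 0.206). Counting every alternative that tested it, 10 of 23 lost the call.

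Genes commonly induced through ERK moved in both directions in basal-like cells, with 6 of 7 called across locations (20.4% of all genes). Etv4 and Etv5, ETS factors, were higher in TEB, at 142 to 355 and 92.6 to 199 CPM, than in nipple, at 4.58 to 39.9 and 6.88 to 57.3 CPM (log2 of nipple over TEB -3.15 ± 0.482 and -2.51 ± 0.514). Ccnd1 (cyclin D1) and Phlda1 were also higher in TEB (-1.36 ± 0.384 and -1.36 ± 0.305), although Ccnd1 lost this call without nipple fragment 22 (adjusted p = 0.0533) and Phlda1 the one across locations with at least 10 cells (0.0779). Plaur, the urokinase receptor, was lower in TEB, 166 to 354 CPM against 673 to 1236 in nipple (2.05 ± 0.203), and so was Myc (1.35 ± 0.282). The median log2 of the 7 was -1.36 against -0.04 over all genes tested. In ER- cells 4 of 5 were called (4.38% of all genes), with Plaur (1.80 ± 0.327) and Myc (1.78 ± 0.379) higher in nipple than in TEB and Ccnd1 (1.29 ± 0.278) and Phlda1 (0.99 ± 0.245) higher in nipple than in duct. With at least 10 cells per fragment Plaur, Myc and Phlda1 were no longer called across locations (adjusted p = 0.662, 0.521 and 0.0766), nor was Ccnd1 without nipple fragment 21 (0.126) or Phlda1 without duct fragment 31, 52 or 61 or nipple fragment 23 or 24 (0.054 to 0.103). Phlda1 nipple against duct was lost without any of those or nipple fragment 21 (0.0502 to 0.19). In ER+ cells 0 of 6 and in fibroblast-like cells 0 of 5 were called by edgeR, with 2 each at an unadjusted p under 0.05 and Etv4 and Phlda1 respectively called by DESeq2. Of 20 genes of the dissociation response, 4 were called in basal-like cells (Dusp1, Jun, Klf6 and Socs3), a share near the 20.4% of all genes, and their summed level was 3530 to 3980 CPM in nipple, 2910 to 5380 in duct and 3810 to 6540 in TEB.

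Likeness of pattern was measured by Spearman's rho of log2(CPM + 1) over the 66 sums of fragments and classes, as a description in which sums of 1 fragment share its library. Tgfa was most like Tinagl1 (0.82), Dsp (0.81) and Perp (0.81), Egfr most like Rhoj (0.81), Frmd6 (0.81) and Serpinh1 (0.80), and Areg most like Fam25c (0.78), Il8 (0.77) and Acot1 (0.77). Btc was most like Krt4 (0.77), Cox5a (0.77) and Tspan1 (0.75), Errfi1 most like Spon1 (0.75), Adm (0.74) and Pttg1ip (0.72), and Erbb2 most like Hmgn1, Hmgb3 and Ppia (each 0.74). Ereg (Id1 0.65, Arc 0.64, Fbln7 0.63) and Hbegf (Tuba1c 0.58, Rps29 0.57, Actb 0.55) had weaker partners.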

How the data were processed

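The authors sorted single cells of 16 mammary fragments into wells with barcodes and ERCC spike-ins and deposited UMI counts for every gene in every cell, not normalized. The submitters' processing notes name Trim Galore, FastQC, UMI-tools, STAR, featureCounts and mm10. The table holds whole numbers, per-sample columns not used number 0, and the barcode list was not used here. The table holds 1419 cells, the number the study's methods give for the final dataset, ahead of their filter thresholds. The study's results state more cells after quality control than the table holds. Here 1318 cells passed the filters below. Well barcodes recur between plates: all 95 names among kept cells occur in more than 1 fragment.

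Cells with an ERCC share up to 5%, 5000 to 120000 UMIs and 200 to 6000 genes were kept, as in the study. Clustering was done in R 4.3.3 (Seurat 5.3.0) at resolution 0.5 on 14 principal components of 2000 variable genes, with ERCC share, cell cycle scores and gene number regressed out. A cluster could take the class whose fixed markers had the highest mean z-score, but further conditions left some clusters unnamed. These were cluster 9, best for endothelial markers (mean z-score 2.725), and cluster 11, best for basal markers (0.454). After the clusters were seen, the choice of class was limited to the classes the study names, because cluster 5 first scored as epidermal. No doublet caller was run.

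For each class, UMIs of a fragment were added up where it gave 5 or more cells. The sums of all locations entered 1 quasi-likelihood model of edgeR 4.0.16 with TMM factors, its low-count filter (filterByExpr) and robust fitting, and p-values were adjusted over all genes tested. Class levels are described without a test, because classes are clusters of the same cells. Neighbouring classes are said to differ beyond their spread where the gap of their means exceeded the SD of each. Carry-over of RNA from other wells was taken, for each class of a fragment, from markers of other classes (median over cells of their share of the fragment's pooled level). For the epithelial classes these were fibroblast and myeloid markers alone, and the pooled level includes the class itself. A gene's expected UMIs are that share times its pooled rate and the class total. Over classes and locations the mean share was 7.15% to 16.1%. Limits for a count of 0 use 3 UMIs over the group and, like exact 95% intervals, cover counting error only. Fold limits set the pooled rate of the higher location, without its own counting error, against these 3 UMIs. None of them covers the spread between fragments. Scripts were tested on simulated counts.

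The 9 members and the pathway lists were chosen with earlier results of these data known. Named genes are the members, list genes called across locations (up to 8 per class) and, for each member with at least 20 CPM in a class, the 3 genes most like it in pattern. Alternatives were other cell filters (ERCC 10%, 10000 UMIs), resolution 1, no regression, family genes kept for clustering, at least 10 cells, RLE size factors, DESeq2 1.42.0, fits unfiltered for low counts, fits of just the locations compared, cells thinned to 5000 UMIs, a block on the label number and leaving out each fragment. Fitting each ER+ cluster alone was added after seeing the data.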

Additional observations from a re-analysis of the deposited data

Results flagged for a closer look

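By Dixon's test, 1 fragment lay far from the rest of its location in 8 of 68 combinations of member, class and location. Chance gives about 1 in 20 for normally distributed values. CPM of sparse counts are skewed, so that rate may not hold here and no excess is read from it. In basal-like cells these were Ereg in nipple fragment 22 (52.2 CPM, the next 7.94), Ereg in TEB fragment 34 (9.91, the next 0.966), Hbegf in TEB fragment 32 (221, the next 66.0) and Erbb2 in nipple fragment 24 (1.79, the rest 0). The last is a single UMI, which stands apart by construction when the rest are at 0, and without that combination 7 of 67 remain. Ereg in TEB fragment 34 rests on 3 UMIs, with a UMI in 2 of 6 TEB fragments. In ER+ cells Hbegf stood apart in duct fragment 62 (256 CPM, the next 146) and in ER- cells Egfr in duct fragment 61 (79.2, the next 42.3). In fibroblast-like cells Errfi1 was low in nipple fragment 22 (767 CPM, the next 938) and in TEB fragment 42 (459, the next 1014).

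By the class by location term, the location effect in basal-like cells differed from that in ER+ cells for Areg (adjusted p = 0.0272, edgeR), Erbb2 (0.0356) and Errfi1 (0.0409), and from that in ER- cells for Errfi1 (0.0294). Basal-like Areg was counted below what was expected from other wells, and the part of carry-over in its term was not tested.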

How the results depend on the processing

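The count of members called across locations was 4 in basal-like cells and went to 2 with cells thinned to 5000 UMIs, where Ereg and Erbb2 did not pass the filter on low counts, to 5 with at least 10 cells per fragment (Hbegf added) and to 4 to 5 leaving out a fragment. In ER+ cells it was 1 and became 2, with Areg added, under RLE size factors, DESeq2, thinning, no regression and family genes kept for clustering, and 1 to 2 leaving out a fragment (2 without duct 61, duct 62 or TEB 32). In ER- cells it was 2, but 3 by DESeq2 and with no filter on low counts (Hbegf added), 0 with at least 10 cells per fragment, 1 with thinning (Hbegf), 1 without regression and 1 to 2 leaving out a fragment (1 without duct 31, duct 62, nipple 23 or nipple 24). In fibroblast-like cells it was 0, but 1 with no filter (Ereg), 2 with at least 10 cells (Egfr and Ereg) and 0 to 2 leaving out a fragment (2 without duct 32, 1 without duct 52, 61 or 62, nipple 22, TEB 34 or 42). Other than with no filter, Ereg enters these counts only where it passes the filter, which it can do through nipple alone. Class by location terms numbered 3 against ER+ cells, 2 under RLE size factors, 0 with at least 10 cells, 1 with thinning and 0 to 3 leaving out a fragment, and 1 against ER- cells, 0 under RLE size factors and 0 to 1 leaving out a fragment. The class with the highest mean was the same for 9 of 9 members, or 8 with thinning or without regression, where Erbb2 moved. Where no reason is given here, the cause was not tested.

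Of the 2686 alternative values of single genes, 2531 kept direction and side of the threshold, 111 lost and 33 gained a call, 10 turned sign, each without a call, and 1 level moved (Btc in myeloid-like cells, 12.9 CPM with thinning). The sign turned for Errfi1 nipple against duct in ER+ cells (0.0435 under the block, 0.0543 in cluster 2 alone and -0.255 to 0.0581 leaving out a fragment, positive without duct 32, nipple 21 or nipple 23), Etv5 nipple against duct in basal-like cells (-0.68 to 0.586 leaving out a fragment, negative without nipple 24), and in ER- cells Btc duct against TEB (-0.10 with at least 10 cells), Myc nipple against duct (-0.0222 to 0.329, negative without duct 31), Plaur nipple against duct (-0.339 to 0.0295, positive without duct 62) and Areg nipple against TEB (-1.46 to 0.0326, positive without TEB 32). Not run were the basal-like location effect without regression, with 0 nipple sums left, and the term against ER- cells at 10 cells, which could not be fitted.

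Duct and TEB share the label numbers 31 and 32, which the labels do not explain. Deviations of same-numbered fragments from their group means correlated at -0.01 to 0.04. So few values cannot decide whether the number pairs fragments, and the main fit does not use it. The first digit of the nipple numbers occurs in no duct or TEB number. Anything that digit might mark could not be told apart from location. With the replicate block the calls across locations numbered 5 in basal-like cells (Hbegf added, adjusted p = 0.00746), 1 in ER+, 2 in ER- and 0 in fibroblast-like cells, and Errfi1 nipple against duct in basal-like cells had adjusted p = 0.0596.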

Other observations

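The 87 unnamed cells held family ligands in different proportions. Cluster 9 (68 cells) was led by mast cell genes, with the endothelial genes Emcn and Selp also among its 10 leading genes. Endothelial markers were its best-scoring list. It had 3140 pooled CPM of Krt18, a luminal keratin, 1630 of Areg, 126 of Btc, 168 of Hbegf and 216 of Errfi1. Which of its cells held them was not examined. Cluster 11, 19 cells led by Rgs5 among others, had 1230 pooled CPM of Hbegf and 1660 of Errfi1, but 45.7 of Areg and 3.51 of Btc. Cells were pooled over fragments here, so no spread between fragments stands behind these values.

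Ligand and receptor UMIs were also counted in the same cells. Among basal-like cells, 27 of 53 with an Ereg UMI had an Egfr UMI (50.9%), against 32.5% of those without. Of these 53 cells, 43 came from duct. The shares were 40.9% and 32.6% for Hbegf, 38.2% and 34.6% for Tgfa and 36.9% and 34.2% for Areg. In ER- cells 46 of 115 with Hbegf had Egfr (40%), against 30.6% without. There the shares were 48.8% and 33.1% for Tgfa, 42.9% and 24.1% for Areg, and 0 of 3 cells with Ereg had Egfr. In these classes 366 and 214 Egfr UMIs were counted and 69.6 and 48.1 expected from other wells. ER+ cells are left out, since their Egfr UMIs lay below those expected from other wells. Shares rise with the depth of a cell, and these were not thinned. Cells were pooled over fragments and locations, so no spread between fragments stands behind these shares.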
